A study of Mus musculus with 8 samples.

Results

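The collagens and other extracellular matrix genes of the thermogenic fat depot (brown adipose tissue, BAT) were examined as a list of 36 named genes. The list was split by role into 5 fibrillar collagens, 11 other genes of the interstitial matrix, 10 genes of the basement membrane and 10 genes of matrix remodelling and signalling. A gene was represented by its brightest probe set with a single gene symbol. This gave values for 34 of the 36 genes, out of 22180 genes in all. Loxl2, an enzyme that cross-links collagen, is paired in the annotation only with probe sets shared with Gm21451, and Fbn1, the gene of the microfibril protein fibrillin-1, was not analysed here. Timp1, an inhibitor of matrix metalloproteinases, read between 2.09 and 2.53 log2 in the 8 arrays, below the dim limit of 2.88 log2. The other 33 genes were tested among 13229.

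The tissue came from 5 male mice labelled Abhd15 KO and 3 male wild-type (WT) mice, all on a C57BL/6J background and normal chow. One place in the labels gives an age of 14 weeks, and another gives up to 14 weeks on that diet. All mice were fasted overnight and then given chow for 1 h before the tissue was taken. Each array held RNA of 1 mouse, 200 ng in all cases, and is called KO1 to KO5 or WT1 to WT3 below after its label and replicate number. The arrays labelled KO are from mice lacking, by their label, Abhd15, a gene of the alpha/beta hydrolase fold family expressed in fat cells. How the deletion was made, its extent, and the litter, cage and harvest day are not given in the sources used here.

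Fat cells sit in a meshwork made largely by fibroblast-like progenitors, mural cells and the fat cells themselves. Fibrillar collagens form the tensile fibres of this meshwork, collagen VI forms beaded filaments around cells, and a basement membrane of collagen IV, laminins, nidogen and perlecan coats each adipocyte and each capillary. Lysyl oxidases cross-link the fibres, metalloproteinases cut them, and TIMP proteins restrain the metalloproteinases. In a bulk tissue sample, fewer cells of a type and less RNA per cell cannot be told apart.

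Abhd15 itself did not read lower under the KO label. The brightest Abhd15 probe set read 6.32, 6.14, 5.68, 6.35 and 6.13 log2 in KO1 to KO5, against 5.87, 5.94 and 6.23 in WT1 to WT3. A second Abhd15 probe set averaged 3.81 ± 0.28 log2 in KO arrays (SD, n = 5) and 3.52 ± 0.74 in WT arrays (SD, n = 3). Probes that lie beyond a deletion do not test it, and the directions given are those of the labels. Ucp1, the uncoupling protein that defines brown adipocytes, read 12.52 to 12.89 log2 in KO arrays and 12.51 to 12.77 in WT arrays. Pairs of arrays correlated at 0.964 to 0.975 across probe sets, and none held identical values. Nothing in the labels tells whether the mice were handled in separate batches.

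None of the 33 matrix genes passed the test between the labels. With limma at an adjusted p of 0.05 the count was 0 of 33 matrix genes and 0 of 13229 genes (0.0%), and the smallest adjusted p over all genes was 0.9997. At an unadjusted p under 0.05 limma found 1 of 33 matrix genes, against 4.01% of all genes tested (2.24% higher in KO arrays). That gene was Timp3, which was also the 1 matrix gene whose groups did not overlap, where 2.77% of all genes tested had groups that did not overlap in either direction (1.58% with KO arrays higher, 1.19% with KO arrays lower). The largest difference in size among the 33 genes was 0.38 log2, and the median half-width of their 95% confidence intervals was 0.44 log2. The intervals of 2 genes, Col3a1 and Col6a2, reached past 1 log2 unit, which is a 2-fold difference. The other 31 intervals did not, so for those genes a difference of that size lay outside the unadjusted interval.

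**Figure D1:**
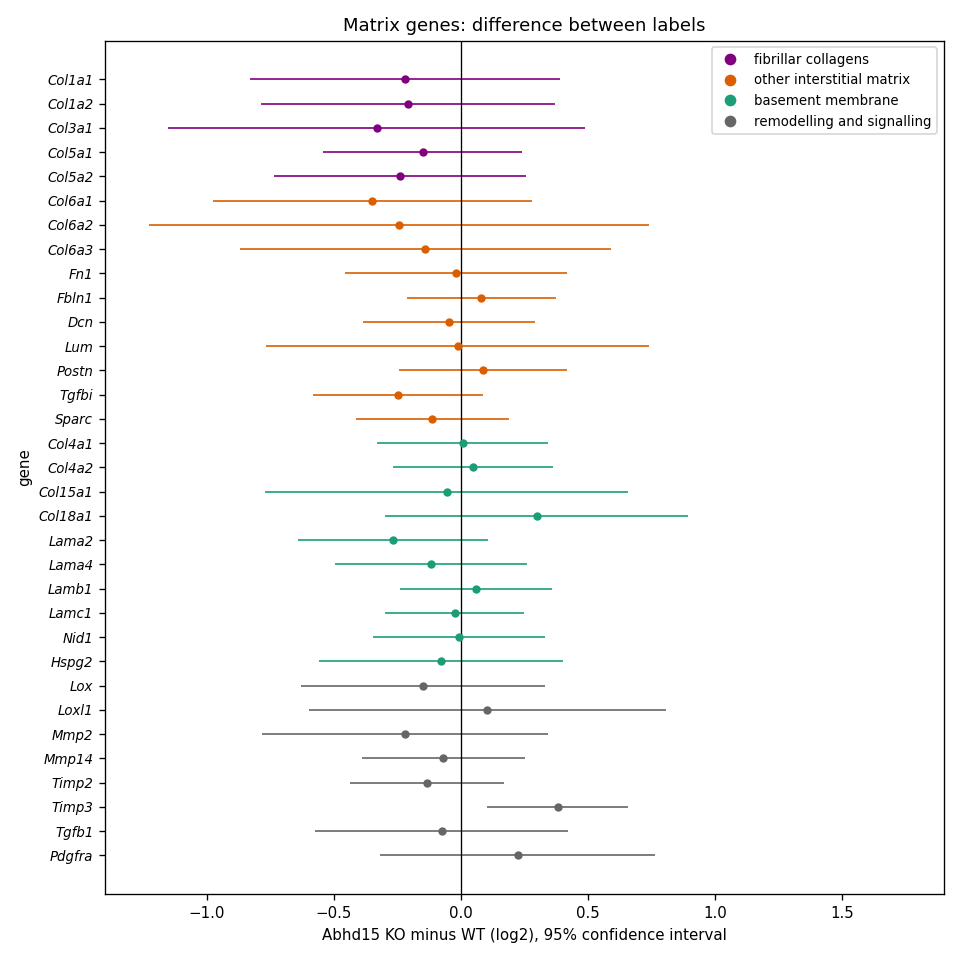
Difference between arrays labelled Abhd15 KO and WT arrays (log2, KO minus WT) for the 33 tested matrix genes, with the gene down the page and colour for its class. Points are limma estimates from 5 KO and 3 WT arrays, bars are 95% confidence intervals, and the interval of Timp3 is the one that leaves out 0.

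The matrix genes were spread between mice of the same label, somewhat more than a typical gene. Spread was taken as limma's moderated within-group SD, which is drawn toward a value shared by all genes. Its median was 0.27 log2 for the matrix genes, against 0.22 over all genes tested. For the other matrix pathway genes described below it was 0.25. Among cell type marker lists it was 0.16 for brown adipocytes, 0.20 for endothelium, 0.32 for macrophages and 1.03 for skeletal muscle. The spread was thus not particular to this list. Across the 8 arrays 12 of 33 genes (36.4%) ranged over more than 1 log2 unit, against 22.1% of all genes tested. WT2 was the highest array for 12 of the 33 genes and KO1 for 10, and neither was the lowest array for any. Over all 13229 genes WT2 was highest for 15.9% and KO1 for 14.2%. KO3 was the lowest array for 12 of the 33 genes, against 10.2% of all genes. In 16 of 33 matrix genes (48.5%) KO1 and WT2 were both above each of the other 6 arrays, a pattern found in 9.59% of all genes tested. These are counts within 8 mice, with no test, and the 2 arrays carry opposite labels. The 2 arrays were picked out with these values known, so the excess over all genes is no test of the pattern.

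**Figure D2:**
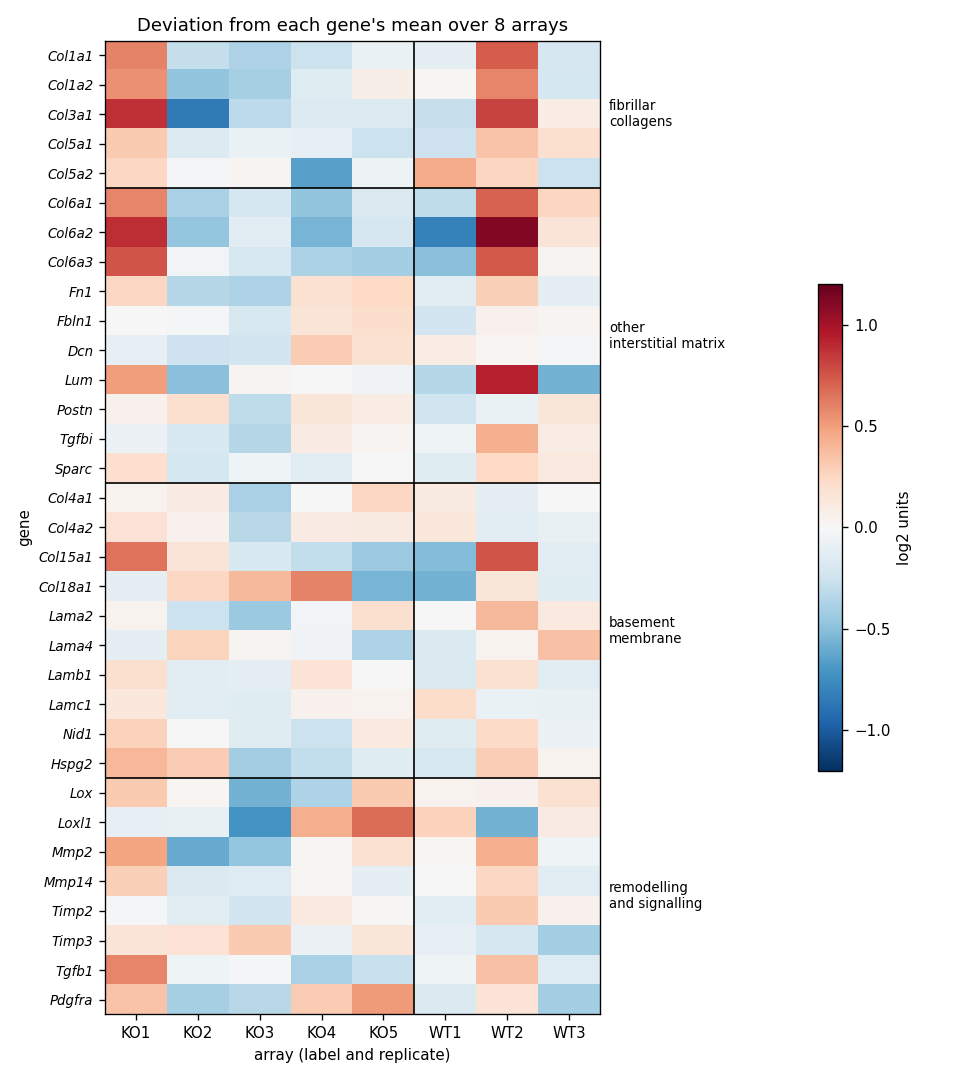
Map of the 33 tested matrix genes (down the page, by class) in the 8 arrays (across, KO1 to KO5 and then WT1 to WT3). Colour is the gene's deviation in log2 units from its own mean over the 8 arrays, and the columns KO1 and WT2 are red through the fibrillar collagens and collagen VI.

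The start sites of 2 fibrillar collagen genes and 1 collagen VI gene that shared this pattern, and of Timp3, which did not, are shown for comparison. Each run is the 250 bases before the annotated start, 5′ to 3′ on the gene's own strand, from RefSeq on GRCm38.p6. Capitals mark 4 short motifs searched on both strands, namely CCAAT (the CCAAT box), GGGCGG (the GC box), TATAAA (the TATA box) and CAGAC (a SMAD-type element), so that a match on the other strand appears as its reverse complement.
Col1a2 (chr6:4505368-4505617, plus strand): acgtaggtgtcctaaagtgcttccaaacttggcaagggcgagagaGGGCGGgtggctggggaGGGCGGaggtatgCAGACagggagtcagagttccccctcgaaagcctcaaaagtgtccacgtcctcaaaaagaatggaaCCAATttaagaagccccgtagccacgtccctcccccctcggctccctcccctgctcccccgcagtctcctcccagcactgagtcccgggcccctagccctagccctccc
Col3a1 (chr1:45311288-45311537, plus strand): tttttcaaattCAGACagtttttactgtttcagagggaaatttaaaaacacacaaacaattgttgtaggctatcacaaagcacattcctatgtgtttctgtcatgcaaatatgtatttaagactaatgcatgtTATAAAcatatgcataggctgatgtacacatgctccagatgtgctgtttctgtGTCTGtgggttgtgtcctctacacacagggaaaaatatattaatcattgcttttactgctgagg
Col6a1 (chr10:76726045-76726294, minus strand): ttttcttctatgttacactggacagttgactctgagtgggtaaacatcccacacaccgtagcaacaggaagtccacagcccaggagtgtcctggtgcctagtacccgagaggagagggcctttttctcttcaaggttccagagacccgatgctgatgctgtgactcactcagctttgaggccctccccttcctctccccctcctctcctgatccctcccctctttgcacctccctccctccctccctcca
Timp3 (chr10:86300162-86300411, plus strand): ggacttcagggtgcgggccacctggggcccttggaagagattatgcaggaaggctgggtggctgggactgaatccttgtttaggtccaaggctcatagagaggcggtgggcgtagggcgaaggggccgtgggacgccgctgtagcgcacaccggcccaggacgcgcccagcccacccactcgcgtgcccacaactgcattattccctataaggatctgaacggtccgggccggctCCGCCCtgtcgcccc
The 3 collagen windows have little in common by these letters. Col1a2 holds 2 GC boxes, 1 CCAAT and 1 CAGAC in a window that is 62% G and C, Col3a1 holds 1 TATAAA and 2 CAGAC in a window that is 35.2% G and C, and Col6a1 holds none of the 4. The Timp3 window is 65.6% G and C and holds 1 GC box. RefSeq starts were matched for 25 of the 36 genes, counting any start of a gene, and GGGCGG occurred in 16 of these (64%) against 35.4% of 27025 genes. CCAAT occurred in 9 (36%, against 37.5%), CAGAC in 14 (56%, against 45.8%) and TATAAA in 2 (8%, against 14.3%). No motif overlaps another in the runs printed. The 27025 genes include genes not tested on these arrays. No share was counted over tested genes or over windows of like G and C content. A match is a description of the letters and not of a bound site.

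The fibrillar collagens had lower means in the KO arrays in 5 of 5 genes, with none past the test. Over all genes 48.3% had a lower mean in KO arrays and 51.7% a higher one. The class median was -0.22 log2, beside 0.01 over all genes tested. Col1a1, a chain of type I collagen, read 7.71, 6.83, 6.74, 6.86 and 7.03 log2 in KO1 to KO5, against 7.00, 7.84 and 6.91 in WT1 to WT3. KO1 and WT2 stood apart from the other 6 arrays, which lay between 6.74 and 7.03, and the groups overlapped. The difference was -0.22 log2 (95% confidence interval -0.83 to 0.39). Its partner chain Col1a2 read 7.53, 6.51, 6.58, 6.83 and 7.05 in KO1 to KO5, against 7.00, 7.56 and 6.77 in WT1 to WT3. The same 2 arrays were highest, by 0.47 log2 over the next. A second, dimmer Col1a2 probe set also had KO1 (4.57) and WT2 (4.91) as its highest arrays, against 3.41 to 4.28 in the others.

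Col3a1, the type III collagen that co-assembles with type I, had the widest range of the fibrillar genes. It read 7.69, 5.96, 6.50, 6.65 and 6.65 log2 in KO1 to KO5, against 6.54, 7.62 and 6.90 in WT1 to WT3. KO1 and WT2 lay at least 0.72 log2 above every other array, and KO2 was the lowest. The difference between the labels was -0.33 (-1.15 to 0.49), smaller than the plain, unmoderated SD of 0.63 in the KO arrays and 0.55 in the WT arrays. Col5a1 and Col5a2, chains of the type V collagen that nucleates fibrils, were less spread. Col5a1 read 4.82, 4.34, 4.42, 4.41 and 4.25 in KO1 to KO5, against 4.25, 4.85 and 4.70 in WT1 to WT3, with KO1 and WT2 again on top. Its dimmer second probe set differed by 0.21, the other direction, and had a mean of 2.90 in KO arrays and 2.68 in WT arrays, close to the dim limit. Col5a2 departed from the pattern. It read 4.34, 4.07, 4.12, 3.44 and 4.03 in KO1 to KO5, against 4.53, 4.35 and 3.84 in WT1 to WT3, so WT1 was its highest array.

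**Figure D3:**
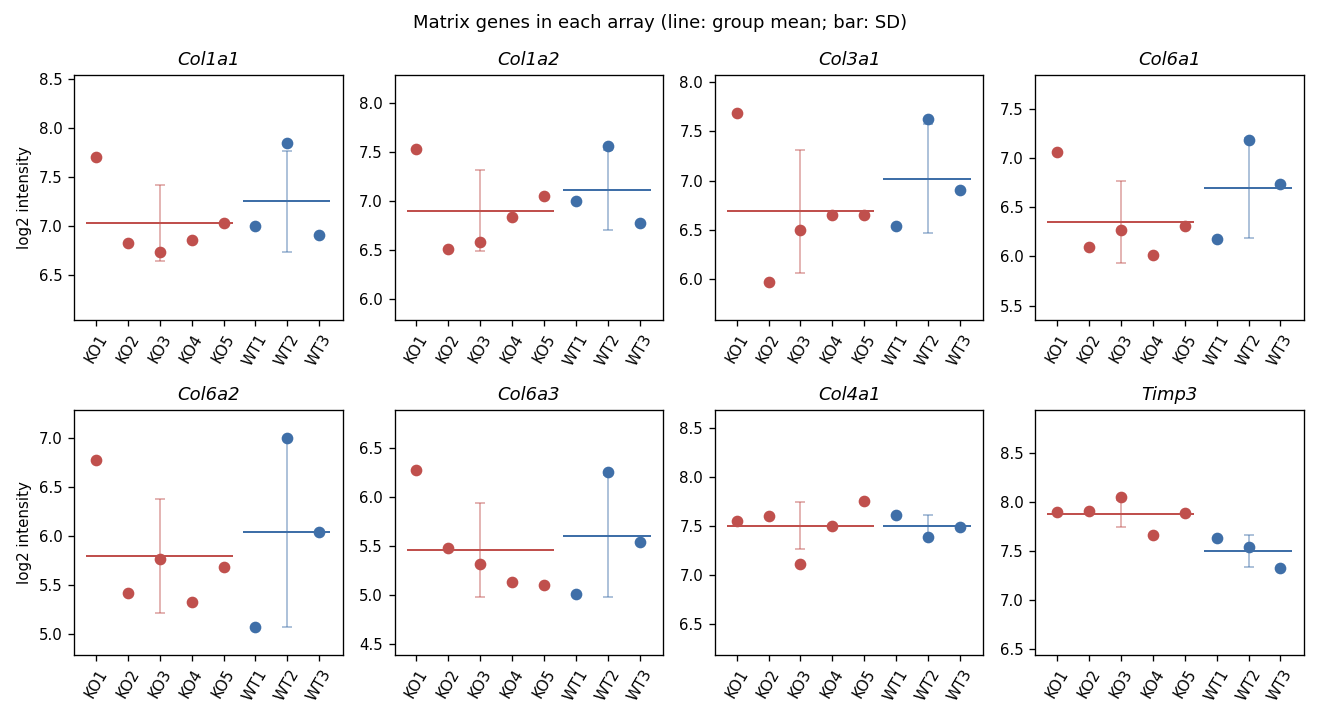
Log2 intensity (vertical axis, 2.5 log2 units in every panel) of 8 matrix genes in arrays KO1 to KO5 (red) and WT1 to WT3 (blue), with lines at group means and bars of 1 SD. KO1 and WT2 are the 2 highest arrays in the type I, type III and type VI collagen panels, are not so in Col4a1, and in Timp3 all 5 KO arrays lie above the 3 WT arrays.

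The collagen VI genes followed the fibrillar pattern. Col6a2 had the widest range of all 33 genes, 1.92 log2. It read 6.78, 5.42, 5.76, 5.33 and 5.68 log2 in KO1 to KO5, against 5.07, 7.00 and 6.04 in WT1 to WT3. WT1 was the lowest array and WT2 the highest, so the WT group spanned the whole range of the KO group. Col6a1 read 7.06, 6.10, 6.27, 6.01 and 6.31 in KO1 to KO5, against 6.17, 7.19 and 6.74 in WT1 to WT3, and Col6a3 read 6.27, 5.48, 5.32, 5.13 and 5.10, against 5.01, 6.25 and 5.54. In all 3 chains KO1 and WT2 were the 2 highest arrays. Their differences between the labels were -0.35 (-0.98 to 0.28) for Col6a1, -0.24 (-1.23 to 0.74) for Col6a2 and -0.14 (-0.87 to 0.59) for Col6a3. A second, dimmer Col6a1 probe set differed by 0.05, again with KO1 (4.09) and WT2 (3.99) on top.

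The proteoglycans and glycoproteins between the fibres were divided. Lum, the gene of lumican, a small leucine-rich proteoglycan that spaces collagen fibrils, read 6.06, 5.06, 5.59, 5.55 and 5.52 log2 in KO1 to KO5, against 5.22, 6.49 and 5.00 in WT1 to WT3. Its label difference was -0.01 (-0.77 to 0.74), and KO1 and WT2 were highest. Dcn, the gene of decorin, of the same proteoglycan family, read 10.09, 9.94, 9.95, 10.48 and 10.36 in KO1 to KO5, against 10.27, 10.20 and 10.16 in WT1 to WT3. Decorin thus did not share the lumican pattern, with KO4 and KO5 highest. Fn1, the gene of the adhesive glycoprotein fibronectin, read 7.34, 6.76, 6.73, 7.29 and 7.34 in KO1 to KO5, against 6.97, 7.38 and 6.98 in WT1 to WT3, a difference of -0.02 (-0.45 to 0.42). KO5 came within 0.01 log2 of KO1, so the 2 arrays barely stood out. Sparc, a collagen-binding matricellular protein, read 8.83 to 9.25 in KO arrays and 8.90 to 9.28 in WT arrays, a difference of -0.11 (-0.41 to 0.19). Tgfbi, a secreted adhesion protein induced by TGF-beta, differed by -0.25 (-0.58 to 0.09), with 6.64 to 7.08 in KO arrays and 6.93 to 7.40 in WT arrays. Fbln1, the gene of fibulin-1, differed by 0.08 (-0.21 to 0.37), and Postn, the gene of the matricellular protein periostin, by 0.09 (-0.24 to 0.42). Periostin read 8.89 to 9.39 in KO arrays and 8.96 to 9.35 in WT arrays, with KO3 the lowest array. Of the 10 tested genes in this class 8 had a lower mean in KO arrays and 2 a higher one, with a median of -0.08.

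The basement membrane genes showed the smallest spread among classes by the median of moderated within-group SDs, 0.22 log2, and their median label difference was -0.02. Of the 10 genes 6 had a lower mean in KO arrays and 4 a higher one. Col4a1 and Col4a2, which encode the chains of the main collagen IV network, did not share the KO1 and WT2 pattern. Col4a1 read 7.55, 7.60, 7.12, 7.50 and 7.76 log2 in KO1 to KO5, against 7.61, 7.39 and 7.50 in WT1 to WT3. Col4a2 read 7.08, 6.96, 6.58, 7.01 and 7.01 in KO1 to KO5, against 7.04, 6.77 and 6.82 in WT1 to WT3. KO3 was the lowest array of both, and WT2 was the lowest WT array of both. Their label differences were 0.01 (-0.33 to 0.34) and 0.05 (-0.27 to 0.36).

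The groups also overlapped for the collagens with endostatin-like ends. Col15a1, which links the basement membrane to the fibres around it, read 4.27, 3.78, 3.44, 3.33 and 3.19 log2 in KO1 to KO5, against 3.10, 4.38 and 3.48 in WT1 to WT3. KO1 and WT2 lay at least 0.50 above the rest, and they were also the highest arrays, by smaller gaps, of Lamb1 and Nid1 in this class. Col18a1, the source of endostatin, read 3.57, 3.94, 4.07, 4.28 and 3.13 in KO1 to KO5, against 3.12, 3.84 and 3.54 in WT1 to WT3. Its difference of 0.30 (-0.30 to 0.89) was the largest of the class, and the groups overlapped.

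The laminin chains overlapped between the labels. Lama2, the alpha-2 chain best known from muscle and nerve, differed by -0.27 (-0.64 to 0.11), with 5.76 to 6.40 log2 in KO arrays and 6.20 to 6.59 in WT arrays. Lama4, the alpha-4 chain of adipocyte and capillary basement membranes, differed by -0.12 (-0.50 to 0.26), with 7.94 to 8.57 in KO arrays and 8.14 to 8.66 in WT arrays. The shared chains Lamb1 and Lamc1 differed by 0.06 (-0.24 to 0.36) and -0.03 (-0.30 to 0.25). Lamc1 had one of the narrowest ranges of the list, 0.36 log2 over the 8 arrays, with 7.67 to 7.93 in KO arrays and 7.72 to 8.03 in WT arrays. Nid1, the gene of nidogen-1, which ties laminin to collagen IV, read 8.32 to 8.85 in KO arrays and 8.43 to 8.80 in WT arrays, a difference of -0.01 (-0.35 to 0.33), and its second probe set differed by -0.09. Hspg2, the gene of the heparan sulphate proteoglycan perlecan, read 7.74, 7.64, 6.92, 7.04 and 7.19 in KO1 to KO5, against 7.14, 7.63 and 7.38 in WT1 to WT3, a difference of -0.08 (-0.56 to 0.40). KO1, KO2 and WT2 were its high arrays.

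Timp3, the TIMP that binds to the matrix and also restrains ADAM proteases, was the 1 matrix gene whose interval left out 0. It read 7.89, 7.91, 8.05, 7.67 and 7.88 log2 in KO1 to KO5, against 7.64, 7.54 and 7.32 in WT1 to WT3. All 5 KO arrays lay above all 3 WT arrays, with KO4 at 7.67 next to WT1 at 7.64. The means were 7.88 ± 0.14 log2 in KO arrays (SD, n = 5) and 7.50 ± 0.16 in WT arrays (SD, n = 3). The difference was 0.38 log2 (0.10 to 0.66), a ratio of 1.30, with an exact two-sided permutation p of 0.0179, the smallest that 56 splits can give. That p largely restates the lack of overlap by which Timp3 stood out and is no separate support. The difference did not pass adjustment over all genes (limma adjusted p = 0.9997). Timp2, which also helps to activate pro-MMP2, had a difference of -0.13 (-0.44 to 0.17), with 7.14 to 7.49 in KO arrays and 7.25 to 7.69 in WT arrays.

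The proteases and cross-linking enzymes overlapped between the labels. Mmp2, the gelatinase of fibroblasts, read 7.39, 6.31, 6.45, 6.94 and 7.10 log2 in KO1 to KO5, against 6.95, 7.36 and 6.87 in WT1 to WT3. KO1 and WT2 were again highest, and the label difference was -0.22 (-0.78 to 0.34). Mmp14, the membrane-bound collagenase that activates MMP2, read 6.55 and 6.50 in KO1 and WT2, and no more than 6.28 in the other arrays, a label difference of -0.07 (-0.39 to 0.25). Loxl1, a lysyl oxidase known for elastic fibres, went against that order. It read 6.00, 6.01, 5.38, 6.53 and 6.77 in KO1 to KO5, against 6.37, 5.53 and 6.20 in WT1 to WT3, so WT2 was its lowest WT array. Its difference was 0.10 (-0.60 to 0.81). Lox, the founding lysyl oxidase, read 7.16, 6.87, 6.28, 6.48 and 7.16 in KO1 to KO5, against 6.89, 6.90 and 7.03 in WT1 to WT3. The KO arrays of Lox spread on both sides of a narrow WT group, with a difference of -0.15 (-0.63 to 0.33).

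The signal Tgfb1, a cytokine that induces collagen genes in fibroblasts, read 6.46, 5.82, 5.85, 5.48 and 5.60 log2 in KO1 to KO5, against 5.82, 6.22 and 5.72 in WT1 to WT3. KO1 and WT2 were the highest arrays, as in the type I collagen genes, and the label difference was -0.08 (-0.57 to 0.42). Of 22 other TGF-beta signalling genes tested, 3 had both of these arrays above the other 6, a pattern found in 9.59% of all genes tested. Pdgfra, the receptor that marks adipose progenitors and fibroblasts, read 6.99, 6.25, 6.32, 6.95 and 7.16 in KO1 to KO5, against 6.48, 6.81 and 6.24 in WT1 to WT3. KO5 was its highest array, and the difference was 0.22 (-0.32 to 0.77). In this class 3 of 8 tested genes had a higher mean in KO arrays and 5 a lower one, with a median of -0.07.

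Marker genes of other cell types also varied between arrays, and part of them were high in the same arrays as the collagens. Taken as the mean deviation from each gene's own mean, the fibrillar collagens stood at 0.52 log2 in KO1 and 0.55 in WT2, against -0.36 to -0.04 in the other arrays. The 13 macrophage markers stood at 0.35 in KO1 and 0.47 in WT2, and between -0.53 and 0.07 elsewhere. Both arrays were above the other 6 in 7 of 13 markers, against 9.59% of all genes tested. Adgre1, the F4/80 antigen of macrophages, read 4.65 in KO1 and 4.79 in WT2, against 3.84 to 4.39 in the other arrays. Cd68, a lysosomal glycoprotein of macrophages, did not have both on top: it read 5.64, 4.67, 5.15, 5.41 and 5.67 in KO1 to KO5, against 5.04, 5.68 and 5.12 in WT1 to WT3, with KO5 above KO1. The summed linear intensity of the macrophage list was 517 to 942 in KO arrays and 678 to 1102 in WT arrays, and 3 of 13 markers had a higher mean in KO arrays. With the macrophage mean as a covariate the median label difference was -0.05 for the fibrillar collagens and -0.01 over the 33 genes. With the skeletal muscle marker mean as a covariate these medians were -0.18 and -0.12. The macrophage mean was highest in KO1 and WT2, as were the fibrillar collagens, so the macrophage fit takes up their shared deviation whatever its source.

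Progenitor and tissue markers ran differently. The 11 tested fibroblast and adipose progenitor markers stood at 0.02 in KO1 and 0.24 in WT2, between -0.26 and 0.11 in the other arrays, and summed to 1897 to 2444 in KO arrays and 2226 to 2449 in WT arrays, with 3 of 11 higher in KO arrays. Of its first 2 genes as listed, Pdgfrb read 6.75 to 7.63 in KO arrays and 6.93 to 7.16 in WT arrays. Cd34 read 6.13 to 6.64 in KO arrays and 6.39 to 6.55 in WT arrays. The groups of 2 of the 11 genes did not overlap, against 2.77% of all genes tested. At an unadjusted limma p under 0.05, 1 was lower in KO arrays and 0 higher, and 0 passed adjustment. Differences in the list ran from -0.60 to 0.27. Pdgfrb, Dpt and Fap of this list also stand in the pathway lists. The 15 skeletal muscle markers stood at -1.95 in KO2 and 1.70 in WT1, with 0.01 in KO1 and 0.55 in WT2. Their sums ran from 682 to 4916 in KO arrays and from 1114 to 8546 in WT arrays, and 0 of 15 had a higher mean in KO arrays. The skeletal actin gene Acta1 read 6.71 to 9.69 in KO arrays and 7.49 to 10.49 in WT arrays, and the fast myosin gene Myh4 7.31 to 10.06 in KO arrays and 8.05 to 10.88 in WT arrays. Endothelial markers had 11 of 12 means higher in KO arrays, with sums of 1997 to 2595 in KO arrays and 1859 to 2286 in WT arrays. The adhesion genes Pecam1 and Cdh5 read 8.05 to 8.27 and 9.53 to 9.81 in KO arrays, against 7.72 to 8.10 and 9.42 to 9.74 in WT arrays. Mural cell markers had 6 of 11 higher, with sums of 2286 to 2503 in KO arrays and 1999 to 2394 in WT arrays, where the smooth muscle genes Acta2 and Tagln read 6.93 to 7.60 and 4.30 to 5.53 in KO arrays, against 6.57 to 7.14 and 4.79 to 4.95 in WT arrays. Brown adipocyte markers had 6 of 12 higher, with sums of 25451 to 28866 in KO arrays and 26860 to 27973 in WT arrays, and the lipid droplet gene Cidea read 12.02 to 12.19 in KO arrays and 12.03 to 12.14 in WT arrays. The mean deviation of the brown adipocyte list was -0.42 in KO3, against -0.12 to 0.21 in the other 7 arrays. The named markers were divided there: Ucp1 was low in KO3 (12.52) and WT2 (12.51), while Cidea in KO3 (12.145) was second only to KO1 (12.193). KO3 was also the array with the lowest mean deviation of the 33 matrix genes (-0.21), and a link between the 2 lists was not tested. Of the mesothelial markers 5 of 8 were tested, with Upk3b at 2.49 to 3.48 in KO arrays and 2.59 to 3.79 in WT arrays, while Msln (2.10 to 2.98), Krt19 and Muc16 were dim. Of the tendon and periosteum markers 3 of 8 were tested, with Scx at 2.88 to 3.34 in KO arrays and 3.05 to 3.27 in WT arrays, while Tnmd (1.77 to 2.70), Mkx, Cilp2, Kera and Ibsp were dim, and of the Schwann cell markers 2 of 7 were tested, with Sox10 and Pmp2 dim. The part of these cell types in the result was not tested, and the macrophage and skeletal muscle covariate fits are descriptions only.

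**Figure D4:**
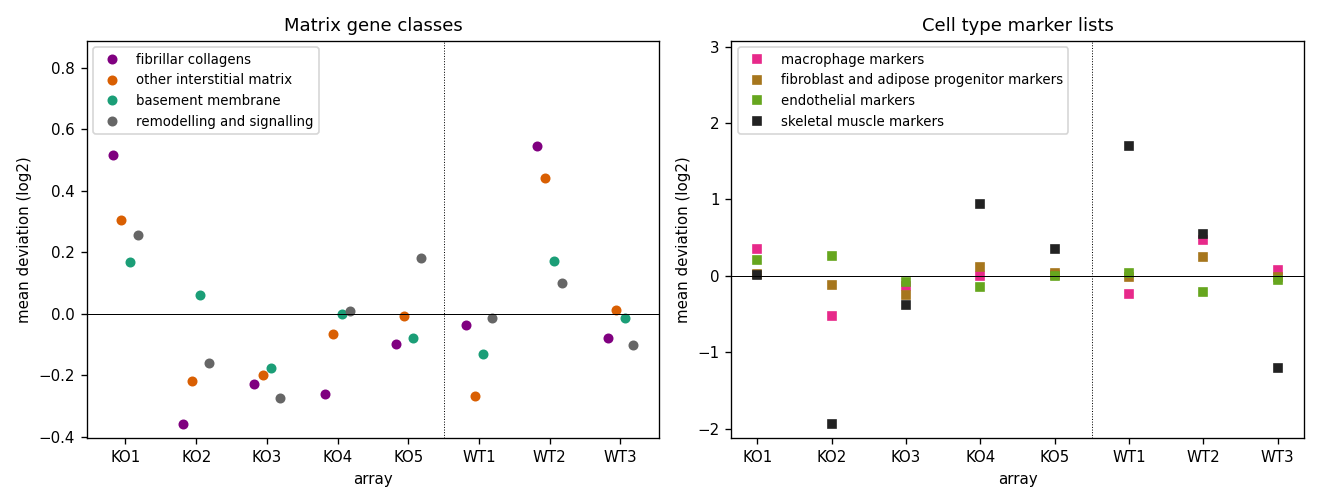
Mean deviation in log2 units (vertical axis) of the 4 matrix gene classes (left) and of 4 marker lists (right) in arrays KO1 to KO5 and WT1 to WT3; the vertical scales of the panels differ. Fibrillar collagens are highest in KO1 (0.52) and WT2 (0.55), macrophage markers are highest in the same arrays (0.35 and 0.47), and muscle markers run from -1.95 in KO2 to 1.70 in WT1.

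The wider matrix pathway showed no gene past the test either. Of 206 further genes listed, 166 were tested, and 0 passed limma's adjusted p of 0.05 in either direction. Of these, 82 had a higher mean and 84 a lower mean in KO arrays, with a median of -0.01. By unadjusted p under 0.05, limma found 3 higher and 2 lower in KO arrays, together 3.01% against 4.01% of all genes, and the groups of 3 genes did not overlap (1.81% against 2.77%). KO1 and WT2 were both above the other 6 arrays in 33 of the 166 (19.9%), against 9.59% of all genes. Among collagen synthesis and processing genes 10 of 19 had higher means. P4ha2, a prolyl hydroxylase subunit that lets the collagen triple helix form, read 4.46, 4.45, 4.36, 4.39 and 4.45 log2 in KO1 to KO5, against 4.14, 4.25 and 4.06 in WT1 to WT3. The groups of P4ha2 did not overlap, with a difference of 0.27 (0.05 to 0.49). P4hb, the gene of the partner subunit protein disulphide isomerase, was the third pathway gene without overlap besides P4ha2 and Lama5 and was picked out after its values were seen. It read 7.85, 7.56, 7.86, 7.63 and 7.75 in KO1 to KO5, against 7.87, 8.03 and 7.93 in WT1 to WT3. Every KO array was lower, but KO3 (7.860) nearly met WT1 (7.869), and the interval of the difference included 0 (-0.21, -0.46 to 0.04). P3h1, a prolyl 3-hydroxylase, differed by 0.34 (-0.03 to 0.71).

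Among the other basement membrane genes 7 of 12 had higher means. Lama5, a laminin alpha chain, read 4.62, 4.87, 4.48, 4.64 and 4.68 log2 in KO1 to KO5, against 4.42, 4.21 and 4.28 in WT1 to WT3. The groups did not overlap, with a difference of 0.36 (0.09 to 0.63), while Lamb3 differed by -0.23 (-0.51 to 0.04). Of 20 tested other collagens 8 had higher means, and the named pair, Col7a1 (0.26, -0.10 to 0.63) and Col6a5 (-0.29, -0.69 to 0.11), read near the dim limit. Of 22 other proteoglycan and matricellular genes 7 had higher means, with Smoc1, a calcium-binding matricellular protein, at -0.49 (-0.90 to -0.08) and Tnc, the gene of tenascin-C, at 0.42 (-0.06 to 0.89). In the elastic fibre list 8 of 15 were higher, with Emilin1 at -0.29 (-0.66 to 0.07) and Mfap4 at 0.35 (-0.16 to 0.85).

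Of 23 other proteases and inhibitors 13 had higher means, with the fibroblast activation protein Fap at -0.31 (-0.66 to 0.03) and the stromelysin Mmp3 at -0.51 (-1.19 to 0.16). Of 23 matrix receptors 10 had higher means, with the integrin beta-3 chain Itgb3 at 0.37 (0.04 to 0.71) and the syndecan Sdc1 at -0.25 (-0.57 to 0.07). In the TGF-beta list 14 of 22 were higher, with the co-receptor Tgfbr3 at 0.22 (-0.02 to 0.45) and the pseudoreceptor Bambi at -0.30 (-0.70 to 0.09). The mean deviation of that list was -0.03 in KO1 and -0.05 in WT2, and it was highest in WT1 (0.24). Among PDGF and fibroblast growth signals 5 of 10 were higher. Igf1, a growth factor made by adipose stromal cells and macrophages, read 5.89, 5.71, 6.36, 5.86 and 5.93 log2 in KO1 to KO5, against 6.43, 6.84 and 6.11 in WT1 to WT3. The groups of Igf1 overlapped, with KO3 above WT3, and the difference was -0.51 (-0.95 to -0.08). Pdgfa, a ligand of the Pdgfra receptor, differed by 0.20 (-0.06 to 0.45).

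The direction of the matrix genes as a list turned without 1 array, WT2. With all 8 arrays 24 of 33 had lower means in KO arrays and 9 higher ones, with a median of -0.08. Without WT2 the count of higher means was 17 and the median 0.02, without KO3 the count was 14 and the median -0.02, and each of the other 6 arrays left out gave a negative median, at -0.15 without KO1, -0.07 without KO2, -0.07 without KO4, -0.05 without KO5, -0.17 without WT1 and -0.10 without WT3. Without KO1 and WT2 together the median was -0.06. The fibrillar median, -0.22 with all arrays, was -0.03 without WT2, -0.37 without KO1 and -0.39 without WT3. Timp3 kept a positive difference under every setting run, from 0.29 to 0.45. All its KO arrays lay above all its WT arrays, so leaving out an array could not turn its sign, and this is no further support.

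**Figure D5:**
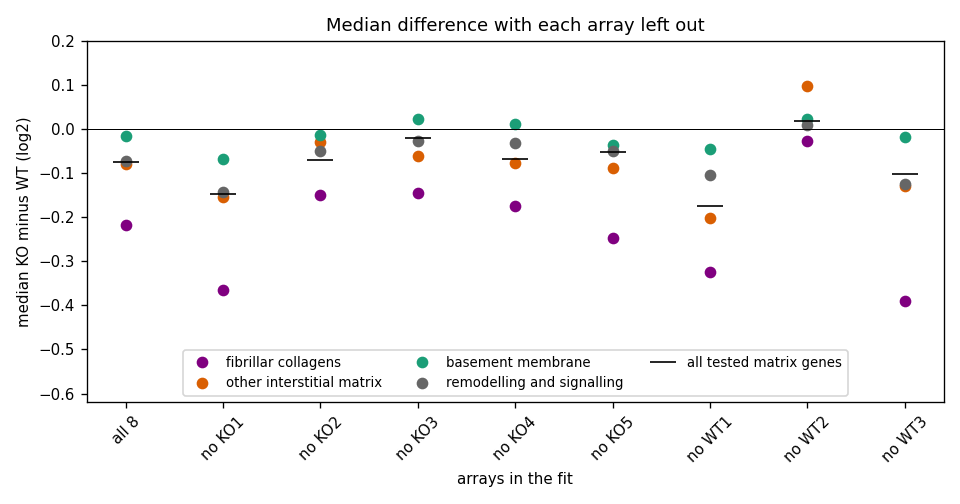
Median log2 difference (vertical axis, KO minus WT) of the 4 matrix gene classes (points) and of all 33 tested matrix genes (bars), with all 8 arrays and with each array left out in turn (horizontal axis). Without WT2 the median of all 33 genes is 0.02 and that of the fibrillar collagens -0.03, and without WT3 the fibrillar median is -0.39.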

How the data were processed

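The deposited values are log2 intensities of a 1-colour Affymetrix Mouse Gene 2.0 ST array, 1 per probe set, made with RMA and oligo per the submitters' processing notes (versions not given); the labels also name Expression Console. RMA includes quantile normalization, which hides any shift common to most of the array. The genome build was not given in the sources used here. Of 41345 probe sets, 23521 had 1 symbol. The brightest of a gene stood for it. The dim limit, 2.88 log2, was the 95th percentile of 1405 olfactory and vomeronasal receptor probe sets, and a gene needed to exceed it on 3 or more arrays to be tested, with limma 3.58.1 (R 4.3.3; lmFit, eBayes, 1 group term), adjusted by Benjamini-Hochberg over 13229 genes. Intervals are unadjusted. Single values were also given an exact permutation test over 56 splits. Array number and signal over background limit precision. The members and lists were chosen with earlier results of these data known. The text names all members, 2 lowest-p genes per pathway list, and up to 2 markers per cell type, the first listed (Schwann cell genes by their dim members). The fit was tested on simulated data. The alternatives were a replicate block, other filters, normalizations, variance models, probe set rules, covariates, a looser threshold and left-out arrays.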

Additional observations from a re-analysis of the deposited data

Results flagged for a closer look

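Among 53 genes checked, 3 had 1 of the 5 KO arrays far from the other 4, by Dixon's ratio above 0.71; chance gives about 1 group in 20. Col6a1 read 7.06 log2 in KO1, against 6.01 to 6.31 in the other KO arrays. Postn read 8.89 in KO3, against 9.25 to 9.39. Col4a2 read 6.58 in KO3, against 6.96 to 7.08. The WT group has 3 arrays and was not checked this way.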

How the results depend on the processing

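Over 20 alternatives and the looser threshold of 0.1, limma called 0 genes in all, 0 matrix genes and 0 other matrix pathway genes, as with all arrays. With a replicate block the median difference of the matrix genes was -0.06, against -0.08 without, and the block changed no call. KO4 and KO5 have no WT array of their number, so that fit drew its difference from numbers 1 to 3 only. Its lack of calls therefore carries little weight. Deviations from the group means correlated at -0.26, -0.10 and 0.02 for numbers 1 to 3, and WT2 deviated most like KO1 (0.39). These correlations cannot show whether mice of the same number shared a litter, cage or day. The median of the 33 genes ran from -0.17 to 0.02. The number of matrix genes with a higher mean in KO arrays was 9 in the report. It was 16 with the macrophage mean as a covariate and 13 with the skeletal muscle mean. With 1 array left out it ran from 7 (without WT1) to 17 (without WT2), with 14 without KO3. Of the 33 differences 11 kept their sign under every alternative run and 22 did not; the cause was not tested. With the most variable probe set of a gene, Col5a1 read 0.21 and Col6a1 0.05. Differences smaller than about 0.44 log2, the median interval half-width, could not be told from 0 for a typical matrix gene.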
